A study of Bos taurus with 12 samples.

Results

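The HOX genes, the 4 clustered families of homeobox transcription factors that mark position along the body axis, were followed in mesenchymal stem cells of juvenile bovine bone marrow. These are adherent stromal cells of the marrow, able to form cartilage, bone and fat. The members were all genes whose probe set on the array carried a single symbol of HOXA, HOXB, HOXC or HOXD followed by a number. This gave 34 genes, each with 1 probe set, out of 39 HOX genes in the RefSeq gene table for cattle and out of 26773 probe sets on the array. HOXA and HOXB had 9 genes each, HOXC had 7 and HOXD had 9. The other HOX genes are not analysed here. A 35th probe set, annotated to both HOXC11 and HOXC10, was kept out of the members.

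Cells came from the femurs and tibiae of 3 donors, cattle under 6 months of age, and were first grown through a single passage at atmospheric oxygen. Cells of each donor were then kept for a week under 4 conditions, which gives 12 arrays, with 3 arrays per condition and 1 per donor. The conditions were hypoxia (2% oxygen) with transforming growth factor β3 (TGF-β3, 10 ng/mL), normoxia (21% oxygen) with TGF-β3, hypoxia alone and normoxia alone. All 4 groups shared the same high-glucose medium with fetal bovine serum. The labels do not say whether cells of femur and tibia were kept apart, so the arrays describe hindlimb marrow as a whole. Total RNA was hybridised to Affymetrix bovine whole-transcript arrays, and all values are the deposited signals on a log2 scale, where a difference of 1 is a doubling.

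HOX proteins bind DNA through a homeodomain, mostly together with cofactors of the PBX, MEIS and PKNOX families. Genes at the start of a cluster (low numbers) are used near the head, and genes at its end (high numbers) near the tail and at the tips of the limbs. In mouse limbs, groups 9 and 10 pattern the upper segment, group 11 the middle segment with the tibia, and group 13 the hand and foot. Adult stromal cells are known to keep part of the HOX code of the place they came from, held by polycomb repressors and trithorax activators.

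Array medians lay between 6.59 and 6.66. Of 10 markers of mesenchymal stromal cells, 8 (NT5E, THY1, ENG, CD44, ALCAM, ITGB1, PDGFRB and CXCL12) lay above the background limit on all 12 arrays, and VCAM1 and LEPR lay above it on none. Of 11 markers of haematopoietic and endothelial cells, none lay above it on all arrays and 9 lay above it on none, among them PTPRC and CD34, while CD14 did so on 10 and PECAM1 on 6. The background limit of an array was the 95th percentile of 62 genes specific to unrelated tissues such as retina, liver and testis. RNA arrays of whole cultures cannot tell fewer cells of a type from less RNA per cell. Signals of different probe sets depend on their probes, so no order of level between HOX genes is drawn.

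The expressed HOX code had a core of 5 genes above the background limit on every array: HOXA5, HOXA7, HOXA10, HOXA11 and HOXD8. HOXA5, which patterns the neck and upper chest in mice, had signals between 8.33 and 9.37. HOXA7, a gene of the thoracic region, lay between 8.68 and 9.24. HOXA10 and HOXA11, which in mice pattern the upper and middle segments of the limb, lay between 7.46 and 8.02 and between 7.86 and 8.24. HOXD8, the only gene of its cluster in this core, lay between 7.53 and 8.14. With the strictest limit tried, the maximum of the background genes, HOXA5 and HOXA7 remained above it on all 12 arrays.

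A further 10 genes lay above the limit on some arrays. HOXC8 and HOXC9 did so on 7 arrays each, with ranges of 6.69 to 7.13 and 6.64 to 7.16. HOXC6 did so on 6 arrays (6.45 to 7.56), and HOXA4 (6.61 to 7.23) and HOXA9 (6.53 to 7.40) on 4 each. HOXC6, HOXC8 and HOXC9 are trunk-level genes that follow each other in the cluster. HOXD9 did so on 2 arrays, and HOXA13, HOXB1, HOXC13 and HOXD13 on 1 each. For these 5 genes and HOXA4, all such arrays were arrays with TGF-β3. HOXC8 and HOXC9 each lay above the limit on 1 array without TGF-β3, and their other arrays above it were with TGF-β3. HOXC6 and HOXA9 had arrays of both kinds above it. The limit was lower on arrays with TGF-β3 (6.58 to 6.89, against 6.98 to 7.24 without). HOXA13 and HOXD13 pattern the hand and foot, and their signals ranged from 6.40 to 6.95 and from 6.29 to 6.86.

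The other 19 genes lay below the limit on all 12 arrays. They included 8 of the 9 HOXB genes, with HOXB1 as the exception, and 6 of the 9 HOXD genes, among them HOXD10, HOXD11 and HOXD12. Both remaining HOXA genes, HOXA2 and HOXA3, and HOXC4, HOXC5 and HOXC12 were also in this class. Thus HOXA had 4 genes above the limit on all arrays, 3 on some and 2 on none, while HOXC had 0, 4 and 3 and HOXD had 1, 2 and 6. A signal below the limit says only that the probe set did not stand out from genes of unrelated tissues on these arrays. The probe set shared by HOXC10 and HOXC11 averaged 6.23 (5.98 to 6.49) and lay above the limit on none.

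The number of HOX genes above the limit was 8 to 11 on arrays with TGF-β3 and 5 to 8 on arrays without. The limit itself was lower with TGF-β3 (6.58 to 6.89, against 6.98 to 7.24 without). With 1 limit for all arrays (6.96, a setting chosen after seeing the data), the counts were 6 to 8 with TGF-β3 and 5 to 9 without, so no change in the number of expressed HOX genes is read from them.

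**Figure D1:**
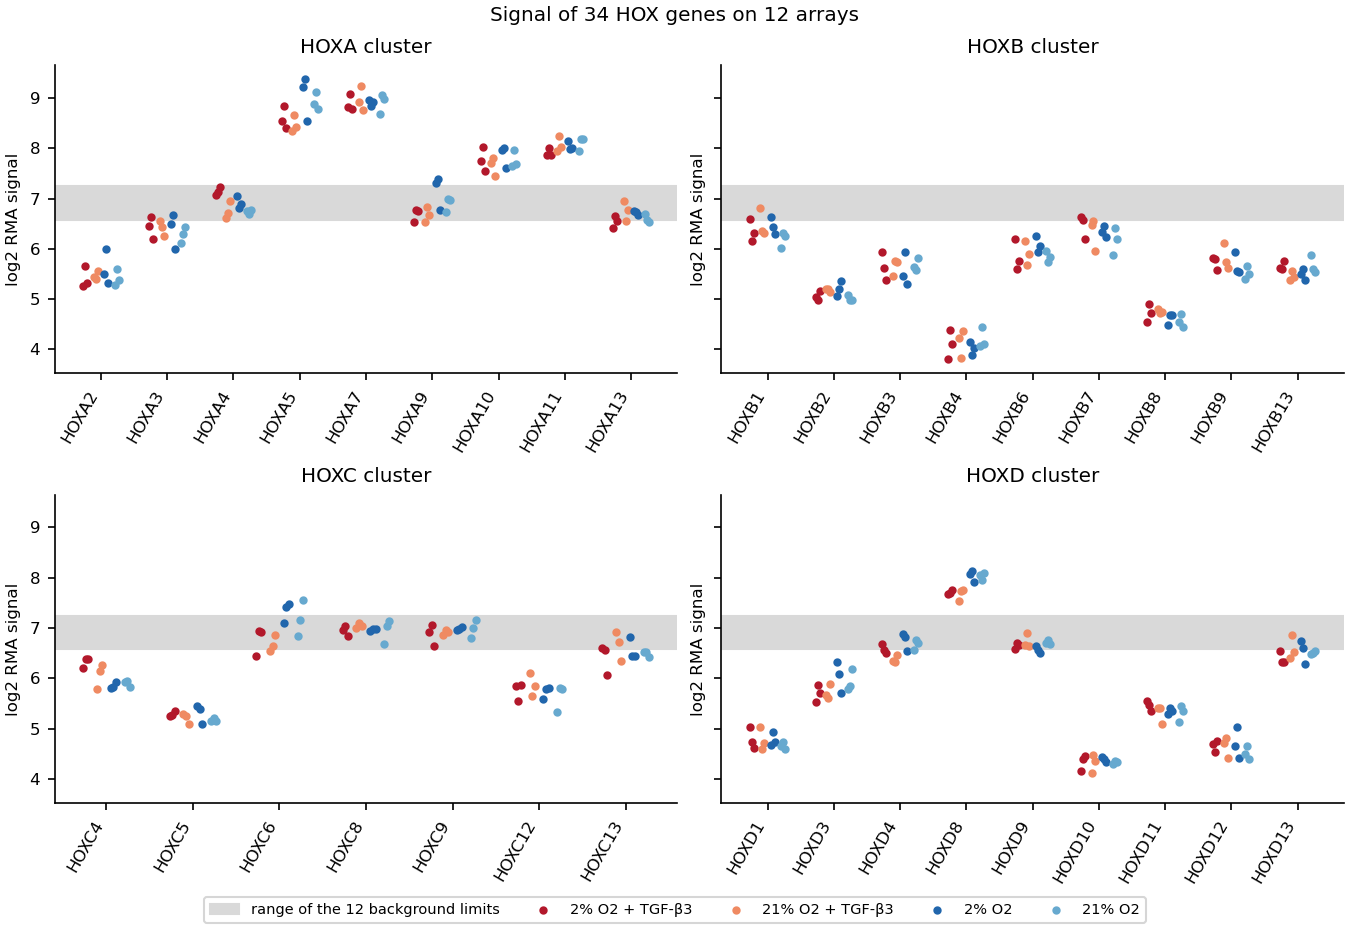
Log2 signal of 34 HOX genes, 1 point per array (12 per gene, 3 per condition), with the range of the 12 background limits (6.58 to 7.24) in grey. HOXA5, HOXA7, HOXA10, HOXA11 and HOXD8 lie above the grey band on every array, and most HOXB and HOXD genes lie below it.

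TGF-β3 moved few HOX genes, and none of them by a factor of 2. Averaged over both oxygen tensions, with 6 arrays on each side, HOXD8 and HOXC6 fell and HOXC4 rose. These 3 of 34 genes compare with 9.64% of all probe sets called in the same comparison, so the share of HOX genes that changed was near the background. By sign alone 19 genes were higher and 15 lower, with a median change of 0.0054 for HOX genes and 0.0085 for all probe sets. The test was limma over all 12 arrays with an adjusted p of 0.05 over all probe sets (Benjamini-Hochberg), and changes are given with their standard errors. Because cells of 1 animal met all 4 conditions, a fit with donor as a block was run beside it, and what it gave is stated wherever a call or a number of calls depended on it.

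HOXD8, a trunk-level gene of the HOXD cluster, showed the clearest separation. Its signals with TGF-β3 were 7.67, 7.70 and 7.76 at 2% oxygen and 7.53, 7.73 and 7.75 at 21% oxygen in donors 1, 2 and 3. Without TGF-β3 they were 8.07, 8.14 and 7.91 at 2% oxygen and 8.06, 7.95 and 8.09 at 21% oxygen. Every array with TGF-β3 thus lay below every array without it, which held for HOXD8 alone among the 34 genes and for 6.53% of all probe sets. The fall was -0.35 ± 0.064, or 1.27-fold (adjusted p = 0.00632 without donor as a block and 0.00688 with it, limma). It was present in all 3 donors. The call of the unblocked fit held without any single array, but not without donor 1 (adjusted p = 0.140) or donor 2 (adjusted p = 0.0999).

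HOXC6, which marks the thoracic region and the level of the forelimb, had signals of 6.45, 6.95 and 6.93 at 2% oxygen and 6.55, 6.64 and 6.87 at 21% oxygen with TGF-β3. Without TGF-β3 it had 7.10, 7.41 and 7.48 at 2% oxygen and 6.85, 7.16 and 7.56 at 21% oxygen. The groups overlapped through donor 1, whose untreated array at 21% oxygen lay below 3 of the treated arrays of donors 2 and 3. The fall was -0.53 ± 0.14, or 1.44-fold (adjusted p = 0.0316 without donor as a block and 0.00119 with it, limma). The signal was lower with TGF-β3 in every donor at both oxygen tensions. The call of the unblocked fit was lost without any 1 donor (adjusted p = 0.0518, 0.234 and 0.105 without donors 1, 2 and 3). It was also lost, with adjusted p between 0.0645 and 0.0738, without any of 7 single arrays. These were the treated arrays of donor 1 at 2% and 21% oxygen, the treated array of donor 2 at 21% oxygen, and the 4 untreated arrays of donors 2 and 3.

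HOXC4, a gene of the neck region that lies beside HOXC5 and HOXC6 in the cluster, went the other way. It had signals of 6.21, 6.39 and 6.39 at 2% oxygen and 5.80, 6.14 and 6.26 at 21% oxygen with TGF-β3. Without TGF-β3 they were 5.81, 5.83 and 5.92 at 2% oxygen and 5.93, 5.94 and 5.83 at 21% oxygen. All treated arrays lay above the untreated ones except that of donor 1 at 21% oxygen, and all 12 lay below the background limit. The rise was 0.32 ± 0.081, or 1.25-fold (adjusted p = 0.0286 without donor as a block and 0.0150 with it, limma). The call of the unblocked fit was lost without donor 2 (adjusted p = 0.290) or donor 3 (adjusted p = 0.197). It was lost too, with adjusted p between 0.0545 and 0.0744, without any of 8 single arrays, which were the 4 of donor 2, the untreated array of donor 1 at 2% oxygen, both treated arrays of donor 3 and the untreated array of donor 3 at 21% oxygen. HOXC5, the gene between HOXC4 and HOXC6, had a difference of 0.0069 ± 0.071.

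HOXA5 did not pass in the test without donor, but did so with donor as a block. Its signals with TGF-β3 were 8.55, 8.83 and 8.40 at 2% oxygen and 8.33, 8.67 and 8.42 at 21% oxygen. Without TGF-β3 they were 9.21, 9.37 and 8.54 at 2% oxygen and 8.88, 9.13 and 8.78 at 21% oxygen. The groups overlapped through both untreated arrays of donor 3. That at 2% oxygen lay below 3 treated arrays of donors 1 and 2. That at 21% oxygen (8.78) lay below the treated array of donor 2 at 2% oxygen (8.83). Within each donor, the HOXA5 signal was lower with TGF-β3 at both oxygen tensions. The difference was -0.45 ± 0.14 (adjusted p = 0.0751 without the block and 0.00955 with it, limma). Without the untreated array of donor 3 at 2% oxygen the difference was -0.58 and the unblocked adjusted p was 0.00792. Without all arrays of donor 3 this adjusted p was 0.0382. It was 0.0267 with a random donor term and 0.0421 with a filter on dim probe sets. With the block 4 HOX genes were called, against 14.8% of all probe sets.

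Among the genes that missed the threshold, HOXA9 (-0.34 ± 0.11, adjusted p = 0.0856), HOXD4 (-0.23 ± 0.072, adjusted p = 0.0693) and HOXD3 (-0.28 ± 0.12, adjusted p = 0.182) had unadjusted p under 0.05. Of the core genes HOXA7 differed by 0.029 ± 0.098, HOXA10 by -0.097 ± 0.11 and HOXA11 by -0.084 ± 0.074. Their 95% intervals reached from -0.19 to 0.24 for HOXA7, from -0.34 to 0.15 for HOXA10 and from -0.25 to 0.078 for HOXA11, so a change of a factor of 2 lay outside each. By cluster, the median change was -0.071 for HOXA, 0.026 for HOXB, 0.0069 for HOXC and -0.030 for HOXD. By position, it was 0.026 over the 7 genes of groups 1 to 3, 0.0069 over the 13 of groups 4 to 8 and -0.022 over the 14 of groups 9 to 13. The medians of all clusters and positions were thus small beside the median standard error of 0.098 for a single gene.

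**Figure D2:**
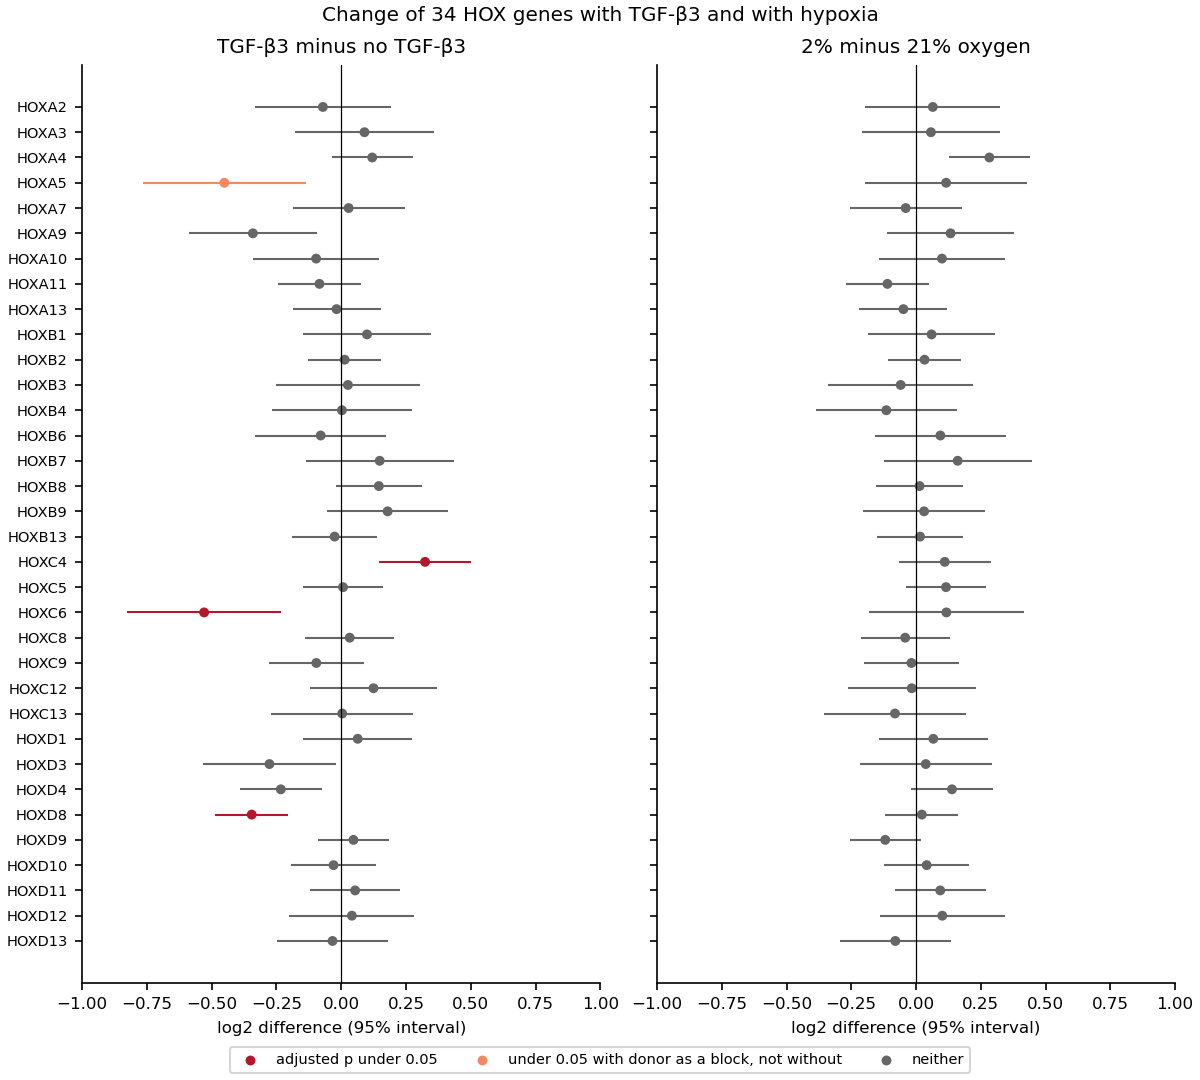
Log2 differences of 34 HOX genes with 95% intervals, TGF-β3 minus no TGF-β3 on the left and 2% minus 21% oxygen on the right, each over 6 against 6 arrays. With TGF-β3, HOXD8 (-0.35), HOXC6 (-0.53) and HOXC4 (0.32) passed an adjusted p of 0.05 and HOXA5 (-0.45) did so with donor as a block but not without it. None passed for oxygen.

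Of the 10 markers of stromal cells, 4 fell with TGF-β3 averaged over oxygen, or 5 with donor as a block. Of all probe sets 9.64% were called in this comparison, or 14.8% with the block. CD44, ALCAM, VCAM1 and LEPR passed in neither fit, nor did ITGB1, which was higher with TGF-β3 (0.13 ± 0.052). The mean signal over the 10 markers was 9.74 to 9.94 on arrays with TGF-β3 and 10.24 to 10.43 on arrays without. PDGFRB (-0.73 ± 0.093), ENG (-0.43 ± 0.089), CXCL12 (-1.17 ± 0.26) and NT5E (-1.01 ± 0.24) fell, and THY1 (-0.69 ± 0.20) fell with donor as a block but did not pass without it (adjusted p = 0.000558 with it and 0.0522 without, limma). THY1 passed in 7 of 22 alternatives, the block and the fit without the untreated array of donor 3 at 2% oxygen among them. The call of NT5E was lost, with adjusted p between 0.0542 and 0.0552, without the untreated array of donor 2 at 21% or 2% oxygen or that of donor 3 at 21% oxygen, and it was lost without donor 2 (adjusted p = 0.261). In limma that of ENG was lost without any 1 donor (adjusted p up to 0.125). Those of CXCL12 (up to 0.240, without donor 1 or 2) and PDGFRB (0.0560, without donor 2) were lost too. The mean over the 11 haematopoietic and endothelial markers was 5.74 to 5.90 with TGF-β3 and 5.56 to 5.70 without. PECAM1, an adhesion molecule of endothelial cells and platelets, was the only one of them that changed, and it rose by 2.12 ± 0.17. The endothelial genes CDH5, VWF and TEK lay above the background limit on none of the 12 arrays. The part of these marker changes in the HOX changes was not tested.

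At 21% oxygen TGF-β3 changed none of the 34 genes in limma without the block, where 4 had an unadjusted p under 0.05 and 2.75% of all probe sets were called. With donor as a block HOXC6 fell (-0.51 ± 0.10, adjusted p = 0.0194), against 6.35% of all probe sets. HOXD8 (-0.36 ± 0.091, adjusted p = 0.0637) and HOXD4 (-0.30 ± 0.10, adjusted p = 0.181) had the smallest p of the lower genes beside HOXC6, and both were lower in all 3 donors. HOXD4, a gene of the neck vertebrae, had 6.35, 6.32 and 6.46 with TGF-β3, against 6.56, 6.76 and 6.70 without. HOXB9 (0.31 ± 0.15), HOXB1 (0.30 ± 0.16) and HOXB2 (0.17 ± 0.090) had the smallest p of the higher genes, with adjusted p between 0.379 and 0.441. HOXB1, a hindbrain gene, had 6.81, 6.35 and 6.31 with TGF-β3, against 6.02, 6.31 and 6.25 without, so that its difference came to 0.79 in donor 1 and 0.045 and 0.059 in donors 2 and 3. HOXB9, which helps to pattern the ribs in mice, likewise had 6.12, 5.73 and 5.62 with TGF-β3, against 5.40, 5.66 and 5.49 without, with most of its difference in donor 1. HOXB2, another hindbrain gene, had 5.20, 5.21 and 5.15 with TGF-β3, against 5.09, 4.98 and 4.99 without.

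At 2% oxygen TGF-β3 changed 1 of the 34 genes, against 3.05% of all probe sets. HOXC4 rose by 0.48 ± 0.11 (adjusted p = 0.04996, limma), just inside the threshold and at a signal below the background limit. This call was lost in 18 of 22 alternatives, with adjusted p from 0.0502 to 0.405. They included leaving out any 1 donor (adjusted p = 0.135, 0.405 and 0.155 without donors 1, 2 and 3) or any 1 array other than the treated arrays of donors 1 and 3 at 21% oxygen (adjusted p between 0.0665 and 0.136). With donor as a block both HOXC4 (adjusted p = 0.0225) and HOXC6 (-0.55 ± 0.10, adjusted p = 0.0121) were called, against 6.98% of all probe sets. HOXD8 (-0.33 ± 0.091, adjusted p = 0.0814) and HOXA9 (-0.47 ± 0.16, adjusted p = 0.163) had the next smallest p of the lower genes. HOXA9, which acts in the upper limb segment and in blood stem cells, had 6.53, 6.78 and 6.75 with TGF-β3, against 7.30, 7.40 and 6.76 without. Its difference was -0.77 and -0.62 in donors 1 and 2 and -0.0070 in donor 3. Of the higher genes, HOXA4 (0.23 ± 0.10, adjusted p = 0.303) and HOXB13 (0.16 ± 0.11, adjusted p = 0.530) followed HOXC4. HOXB13, a gene of the tail end of the body axis, had 5.62, 5.60 and 5.76 with TGF-β3, against 5.49, 5.61 and 5.39 without.

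No HOX gene passed the test for low oxygen, with or without TGF-β3. In limma 0 of 34 genes passed without TGF-β3 and 0 of 34 with it, and none passed with donor as a block. Unadjusted p under 0.05 was reached by 0 genes without TGF-β3, by 2 with it and by 1 in the average over both. Few probe sets of the whole array passed either, 0.00374% without TGF-β3, 0% with TGF-β3 and 0.0486% for oxygen averaged over TGF-β3 (0.0112%, 0.0224% and 0.31% with the block). Of the 34 genes, 28 had a higher mean with hypoxia than with normoxia in cells without TGF-β3, with a median difference of 0.087, but 17 did so with TGF-β3, with a median of -0.011. The 34 genes share the same 12 arrays, so the number of genes on 1 side is a description of these arrays. Averaged over TGF-β3, every 95% interval lay within -0.39 to 0.45, so a doubling or halving of the signal by oxygen lay outside the interval of each gene. For the 19 genes below the background limit on all arrays, such an interval describes a signal at background level. It does not bound the change of their transcripts.

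HOXA4, a gene of the neck region, had the smallest p in the averaged comparison. Its signals at 2% oxygen were 7.08, 7.13 and 7.23 with TGF-β3 and 7.05, 6.81 and 6.89 without. At 21% oxygen they were 6.61, 6.70 and 6.94 with TGF-β3 and 6.76, 6.69 and 6.77 without. The signal was higher at 2% oxygen in all 3 donors with and without TGF-β3, by 0.28 ± 0.071 on average, yet the groups overlapped and the adjusted p was 0.333 (0.161 with donor as a block, limma). No HOX gene had all 6 arrays at 2% oxygen on 1 side of all 6 at 21%, as 0.381% of all probe sets did.

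In cells without TGF-β3 the higher genes with the smallest p were HOXB2 (0.19 ± 0.090), HOXA4 (0.17 ± 0.10) and HOXB1 (0.26 ± 0.16). HOXB1 had 6.62, 6.44 and 6.29 in hypoxia, against 6.02, 6.31 and 6.25 in normoxia, and HOXB2 had 5.06, 5.19 and 5.35, against 5.09, 4.98 and 4.99. The lower ones were HOXB13 (-0.17 ± 0.11), HOXD9 (-0.14 ± 0.088) and HOXB4 (-0.19 ± 0.17), and all 6 had adjusted p between 0.934 and 0.9993. HOXB13 had 5.49, 5.61 and 5.39 in hypoxia, against 5.88, 5.59 and 5.54 in normoxia. HOXD9, which acts with HOXA9 in the upper limb segment of mice, had 6.65, 6.57 and 6.50, against 6.70, 6.75 and 6.69, and was lower in all 3 donors. HOXB4, known from blood stem cells, had 4.16, 3.89 and 4.03 in hypoxia, against 4.07, 4.44 and 4.12 in normoxia.

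In cells with TGF-β3 the higher genes with the smallest p were HOXA4 (0.39 ± 0.10), HOXC4 (0.27 ± 0.11) and HOXD4 (0.20 ± 0.10). Each of them was higher in hypoxia in all 3 donors. Their adjusted p lay between 0.817 and 0.9997, so none passed. HOXD4 had 6.67, 6.56 and 6.51 in hypoxia, against 6.35, 6.32 and 6.46 in normoxia. The lower genes were HOXA13 (-0.22 ± 0.11), HOXD13 (-0.20 ± 0.14) and HOXA11 (-0.16 ± 0.10), with adjusted p of 0.9997 each. HOXA13 had 6.40, 6.66 and 6.55 in hypoxia, against 6.95, 6.54 and 6.76 in normoxia, and HOXD13 had 6.53, 6.33 and 6.31, against 6.40, 6.86 and 6.52. HOXA11 had 7.874, 7.998 and 7.859 in hypoxia, against 7.951, 8.242 and 8.020 in normoxia, and was lower in all 3 donors.

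Cells given both hypoxia and TGF-β3 were set against cells given neither. None of the 34 genes passed in limma without the block, where 3 had an unadjusted p under 0.05 and 3.74% of all probe sets were called. With donor as a block 3 passed, against 7.64% of all probe sets. HOXA4 (0.40 ± 0.10, adjusted p = 0.0537 without the block and 0.0330 with it) and HOXC4 (0.43 ± 0.11, adjusted p = 0.0654 and 0.0317) rose. HOXC6 fell (-0.41 ± 0.19, adjusted p = 0.334 and 0.0409). The untreated arrays at 21% oxygen also serve as controls for TGF-β3 at 21% oxygen and for hypoxia alone.

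The interaction asks whether the effect of TGF-β3 differed between 2% and 21% oxygen. In limma it passed for 0 of 34 genes with or without the block, where 0% of all probe sets passed, and 2 genes had an unadjusted p under 0.05. These were HOXB13 (0.38 ± 0.15) and HOXB2 (-0.31 ± 0.13), each with an adjusted p of 0.9999. HOXB2 was higher with TGF-β3 at 21% oxygen (0.17) and lower at 2% (-0.14) in all 3 donors. The share of all probe sets with such opposite signs was not computed.

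**Figure D3:**
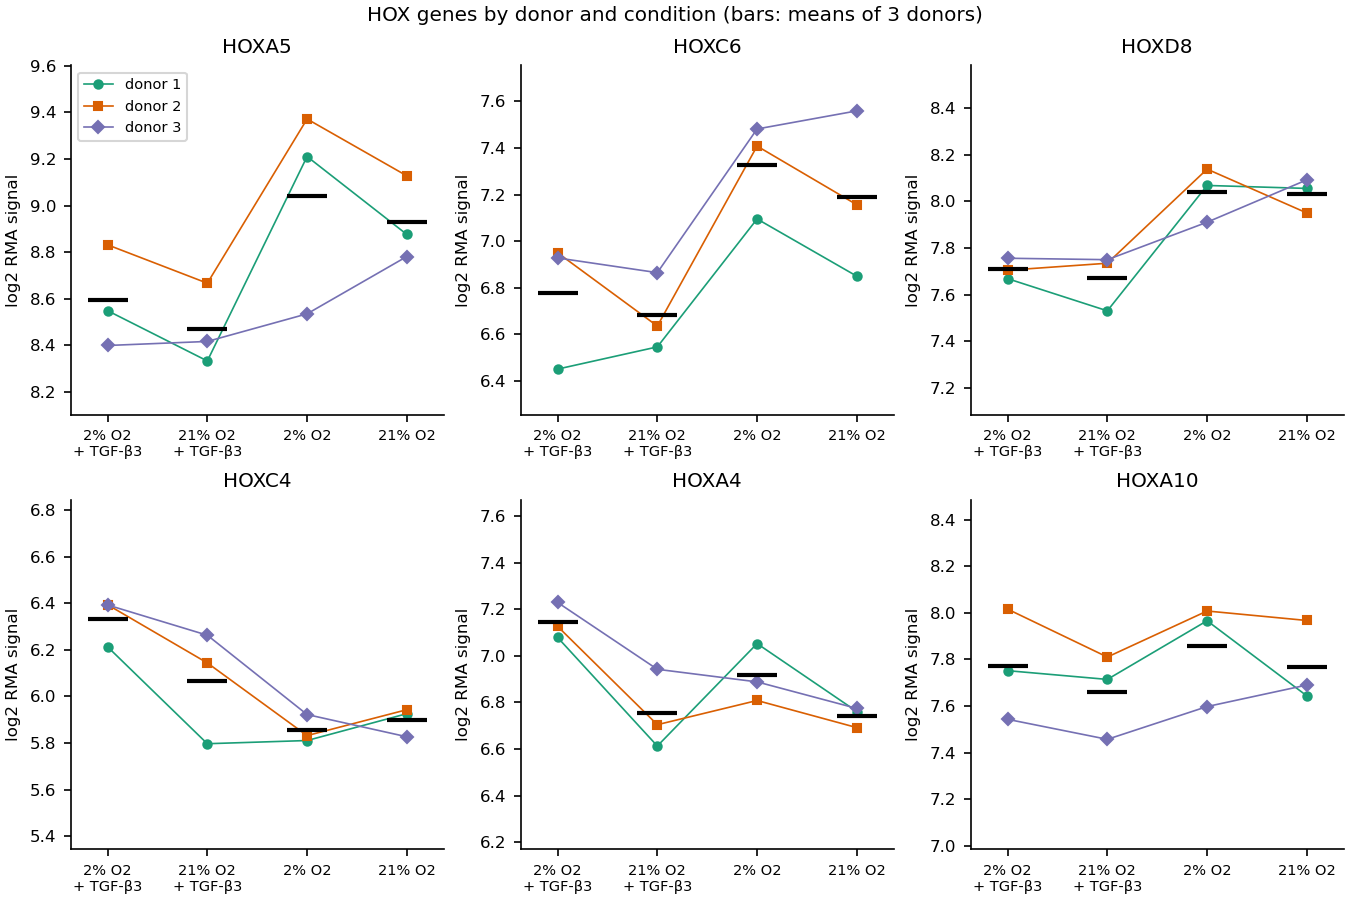
Log2 signal of HOXA5, HOXC6, HOXD8, HOXC4, HOXA4 and HOXA10 in 4 conditions, 1 line per donor and a bar at each mean of 3 donors. Donor 2 is highest for HOXA5 in every condition, donor 1 is lowest for HOXC6 in every condition, and HOXD8 is lower in both conditions with TGF-β3.

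Donors were compared next, since each animal contributed 1 array to every condition and the HOX code is a property of the cells' origin. Donors differed for 3 of 34 genes by limma's F test with the conditions in the model, against 11.3% of all probe sets. These were HOXC6 (adjusted p = 0.00571), HOXA5 (adjusted p = 0.0301) and HOXB6 (adjusted p = 0.0338). HOXC6 averaged 6.74 in donor 1, 7.04 in donor 2 and 7.21 in donor 3. HOXA5 averaged 8.74, 9.00 and 8.53, and HOXB6, a trunk-level gene below the background limit on all arrays, 6.14, 5.74 and 5.89. The number of calls fell to 0 without donor 1 or donor 2, and lay between 1 and 4 without single arrays, at 1 when any array of donor 2 was left out or when the treated 2% array of donor 3 was.

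Pair by pair, HOXB6 was lower in donor 2 than in donor 1 (-0.40 ± 0.073, adjusted p = 0.0465, against 0.766% of all probe sets called). HOXC6 was higher in donor 3 than in donor 1 (0.47 ± 0.088, adjusted p = 0.0238, against 2.86%). HOXA5 (-0.47 ± 0.11, adjusted p = 0.0482) and HOXA10 (-0.38 ± 0.077, adjusted p = 0.0267) were lower in donor 3 than in donor 2, against 4.71%. HOXA10 averaged 7.77 in donor 1, 7.95 in donor 2 and 7.57 in donor 3. Across the 34 genes the range of the 3 donor means was at most 0.47, with a median of 0.16, and the range of the 4 condition means was at most 0.65, with a median of 0.20. A donor mean rests on 4 arrays and a condition mean on 3, so the ranges are not set against each other. The 5 core genes were above the background limit in all 3 animals and all 4 conditions.

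Splitting the variation of each gene over 12 arrays gives the same picture for single genes. TGF-β3 held 82.8% of the sum of squares of HOXD8, 58.6% of HOXC6, 54.5% of HOXC4 and 48.2% of HOXA5. Oxygen held 56.7% of HOXA4 and 37.1% of HOXD9. Donor held 71.5% of HOXA10, 67.9% of HOXB6 and 57.7% of HOXC13. Over the 34 genes the median share was 22.8% for donor, 5.5% for TGF-β3, 3.49% for oxygen and 46.1% for the residual, against 20.8%, 10.2%, 4.41% and 38.1% for all probe sets. The residual was the largest part for 20 of the 34 genes. A share grows with the degrees of freedom of its term, even where the term has no effect. The residual had 6, donor had fewer, and TGF-β3, oxygen and their interaction had the fewest. Shares of different terms are therefore not set against each other, and each median is read only beside that of all probe sets.

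**Figure D4:**
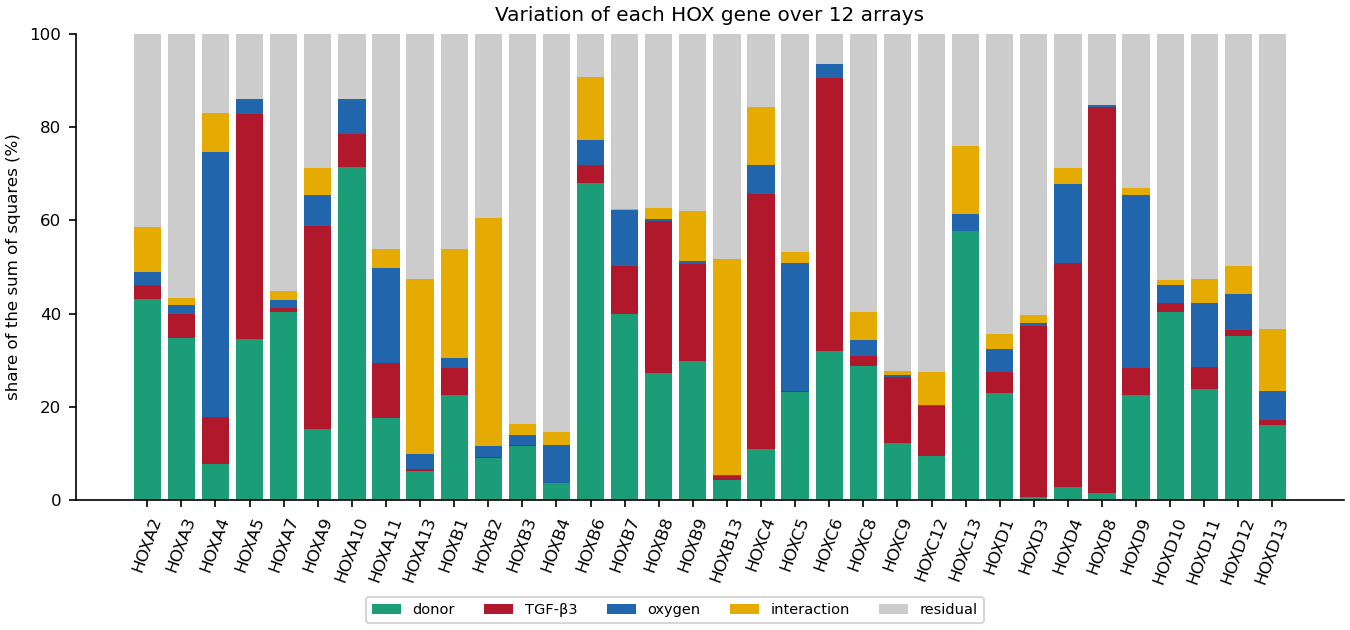
Share of the sum of squares over 12 arrays, in percent, held by donor, TGF-β3, oxygen, their interaction and the residual for each of 34 HOX genes. TGF-β3 holds the largest share for HOXD8 (82.8%), oxygen for HOXA4 (56.7%) and donor for HOXA10 (71.5%).

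Genes that work with, beside or upstream of the HOX clusters were examined in 7 lists with 104 measured genes. TGF-β3 averaged over oxygen changed 20 of them in limma (28 with donor as a block), and hypoxia averaged over TGF-β3 changed none in either fit, with 3 at an unadjusted p under 0.05. Values below are for TGF-β3 averaged over oxygen, where 9.64% of all probe sets were called, or 14.8% with the block, and the median of all probe sets was 0.0085.

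Of 8 HOX cofactors measured, 6 lay above the background limit on all arrays, namely PBX2, PBX3, MEIS1, MEIS2, MEIS3 and PKNOX1. Their DNA-bound complexes with HOX proteins raise binding specificity. MEIS2 fell by 0.46 on the log2 scale (± 0.13, adjusted p = 0.0472), with group means of 8.71 with TGF-β3 and 9.17 without at 2% oxygen, and 8.77 and 9.23 at 21% oxygen. This call was lost in 14 of 22 alternatives. They were quantile normalisation, leaving out donor 1 or 2 (adjusted p = 0.245 and 0.277), and leaving out any 1 array (adjusted p between 0.0534 and 0.108) other than the untreated array of donor 3 at 2% oxygen. PKNOX2 rose with donor as a block but did not pass without it (0.26 ± 0.11, adjusted p = 0.0287 with it and 0.193 without). The median change of the 8 was 0.15. MEIS1 was called with the block for both treatments against neither (0.54, adjusted p = 0.522 without the block and 0.0225 with it).

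Of 13 measured homeobox genes related to or lying beside the clusters, MEOX1 alone lay above the limit on all arrays. MEOX2, a mesoderm homeobox gene of muscle and vessels, fell by 1.50 on the log2 scale (± 0.24, adjusted p = 0.00280), and no other member changed. The call of MEOX2 was lost without donor 2 (adjusted p = 0.109, limma). The caudal genes CDX1 and CDX2, activators of posterior HOX genes in the embryo, lay above the limit on no array, as did GSX1, GSX2, PDX1, MNX1 and GBX1. The median change of the list was 0.045.

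Polycomb proteins keep unused HOX genes silent, and 17 of 19 measured members lay above the limit on all arrays. MTF2, a recruiting subunit of the methylating complex, rose by 0.50 ± 0.093 (adjusted p = 0.00606). Its call was lost without donor 1 or donor 2 (adjusted p up to 0.0766, limma). PHC1 (0.27 ± 0.069, adjusted p = 0.0310) and CBX2 (0.30 ± 0.086, adjusted p = 0.0481), subunits of the ubiquitinating complex, rose too, though CBX2 lay above the limit on 1 array. The call of PHC1 was lost in 12 of 22 alternatives, which were leaving out any 1 donor (adjusted p up to 0.252) or any 1 array (adjusted p up to 0.0797) other than the untreated arrays of donor 1 at 2% and donor 2 at 21% oxygen and the treated array of donor 3 at 21%. That of CBX2 was lost in 16 of 21, among them any 1 donor (adjusted p up to 0.347) and any 1 array (adjusted p up to 0.116) other than the untreated array of donor 1 at 21% and the treated array of donor 2 at 2% oxygen. EZH1, the methyltransferase of resting cells, fell by 0.41 on the log2 scale (± 0.11, adjusted p = 0.0443). Its call was lost in 14 of 22 alternatives, among them any 1 donor (adjusted p up to 0.187) and any 1 array (adjusted p up to 0.101) other than the treated arrays of donor 2. With donor as a block EZH2 (0.42 ± 0.15, adjusted p = 0.0250 with it and 0.111 without) and RNF2 (0.30 ± 0.11, adjusted p = 0.00867 and 0.124) also rose, which makes 5 higher and 1 lower. EZH2 also passed without the treated array of donor 2 at 2% oxygen (adjusted p = 0.0476). The median change was 0.076.

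Trithorax and other HOX-activating chromatin genes had 12 measured members, 10 of them, such as KMT2A, MEN1 and WDR5, above the limit on all arrays. In limma 0 of 12 changed with or without the block, with 2 at an unadjusted p under 0.05 (4 with the block), and the median was -0.014.

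Of 20 limb genes, 11 lay above the limit on all arrays. PITX1, which specifies the hindlimb, averaged 7.92 (7.38 to 8.34) and lay above it on all 12. TBX4, the T-box gene of the hindlimb, averaged 4.65 (4.14 to 5.20) and lay above it on none, while TBX5, that of the forelimb, averaged 7.88 (7.28 to 8.44) and lay above it on all 12. The labels give femurs and tibiae as the source, so a forelimb gene of the embryo was above background in cells labelled as coming from hindlimb bones. With TGF-β3 the hedgehog mediator GLI3 (-0.53 ± 0.077, adjusted p = 0.00135), the limb bud mesenchyme genes PRRX1 (-0.50 ± 0.092), PRRX2 (-0.37 ± 0.080), SHOX2 (-0.42 ± 0.094) and TWIST1 (-0.40 ± 0.097), and the T-box genes TBX3 (-0.78 ± 0.21) and TBX15 (-0.48 ± 0.12) fell. TWIST2 rose (0.68 ± 0.16, adjusted p = 0.0230). In limma the calls of PRRX2 (adjusted p up to 0.161) and SHOX2 (up to 0.154) were lost without any 1 donor. Without donor 1 or donor 2, those of GLI3 (up to 0.0618), PRRX1 (up to 0.0829), TBX3 (up to 0.256), TBX15 (up to 0.175) and TWIST2 (up to 0.233) were lost. That of TWIST1 was lost without donor 1 or donor 3 (up to 0.226). Single arrays decided 4 of the limb calls. That of TBX3 was lost (adjusted p between 0.0599 and 0.0995) without any array of donor 1, either treated array of donor 2 or either untreated array of donor 3. That of TBX15 was lost (0.0597 to 0.0749) without the untreated 2% or treated 21% array of donor 1, either untreated array of donor 2 or either array of donor 3 at 21% oxygen. That of TWIST1 was lost (0.0550 to 0.0557) without either array of donor 1 at 2% oxygen or the untreated 21% array of donor 3. That of TWIST2 was lost (0.0516 to 0.0573) without the treated 21% array of donor 1, either treated array of donor 2 or the untreated 21% array of donor 3. With donor as a block TBX5 (0.32 ± 0.11, adjusted p = 0.0264 with it and 0.109 without) and ISL1 (1.12 ± 0.43, adjusted p = 0.0144 and 0.142) rose as well, which makes 3 higher and 7 lower. ISL1 also passed without the treated array of donor 3 at 21% oxygen (adjusted p = 0.0428). The median of the 20 was -0.094.

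Of 16 genes of head and trunk position, 2 lay above the limit on all arrays, PAX3 (10.08 to 10.74) and NKX3-2. PAX3 is known from muscle precursors and neural crest, and it differed by -0.021 ± 0.12 with TGF-β3. FOXF1, a gene of visceral mesenchyme, rose by 1.01 ± 0.21 (adjusted p = 0.0111). OTX2, a forebrain gene below the limit on all arrays, fell by 0.40 on the log2 scale (± 0.071, adjusted p = 0.00483). In limma the calls of FOXF1 (adjusted p up to 0.161) and OTX2 (up to 0.100) were lost without donor 1 or donor 2. DLX1 rose with donor as a block but did not pass without it (0.19 ± 0.17, adjusted p = 0.0412 with it and 0.586 without). The median was 0.024.

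Retinoic acid is the classical inducer of HOX genes at the start of the clusters. Of 16 measured genes of its pathway, ALDH1A1, an enzyme that makes retinoic acid, rose by 5.36 ± 0.45 (adjusted p = 4.57e-05), to group means of 12.78 at 2% oxygen and 12.70 at 21% oxygen with TGF-β3, against 7.33 and 7.43 without. The receptors RARG (-0.88 ± 0.063, adjusted p = 1.8e-05), RARA (-0.42 ± 0.078, adjusted p = 0.00675) and RXRA (-0.27 ± 0.065, adjusted p = 0.0217) fell. The call of RXRA was lost (adjusted p between 0.0519 and 0.0607) without either untreated array of donor 2, the untreated 2% array of donor 1 or the untreated 21% array of donor 3, and without any 1 donor (adjusted p up to 0.285). That of RARA was lost without donor 1 or donor 2 (adjusted p up to 0.158, limma). CRABP2, a retinoic acid carrier, rose with donor as a block but did not pass without it (0.73 ± 0.25, adjusted p = 0.0314 with it and 0.0924 without), as did DHRS3, a retinaldehyde reductase (0.76 ± 0.33, adjusted p = 0.0337 and 0.195). Without the block, CRABP2 passed without the untreated array of donor 3 at 2% oxygen (adjusted p = 0.0339), and DHRS3 without the treated array of donor 3 at 21% oxygen (adjusted p = 0.0478). The median of the 16 was 0.044. The HOX genes of groups 1 to 3 in the same comparison lay between -0.28 (HOXD3) and 0.0995 (HOXB1), and 0 of these 7 passed in either fit, with HOXD3 the 1 gene at an unadjusted p under 0.05.

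**Figure D5:**
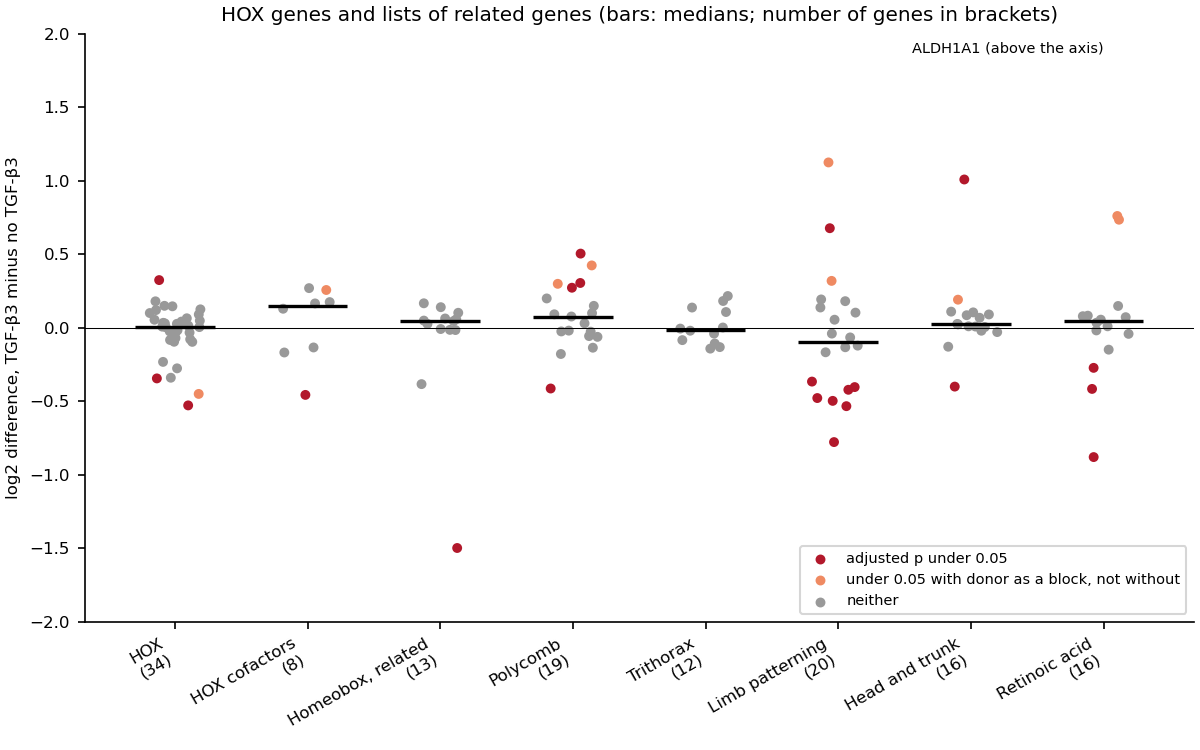
Log2 difference with TGF-β3, averaged over oxygen, of each gene in the HOX set and 7 lists, 1 point per gene with a bar at each median. The median of the HOX genes is 0.0054, 7 of 20 limb genes lie lower past the test, and ALDH1A1 (5.36) lies above the axis.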

How the data were processed

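The deposited values are log2 signals of probe sets, normalised by the authors with robust multi-array averaging (RMA) per the labels. The submitters' processing notes name RMA and Partek 6.6. The log2 scale was taken from the range of the values, and the authors' filters and the library version were not given in the sources used here. Array medians differed by little, so values were used as deposited. Donor and condition came from the titles. No value column was without a sample (0 columns).

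Symbols came from the platform's annotation table. Of 26773 probe sets 18550 had 1 symbol, 595 several and 7628 none. A symbol repeated for several identifiers, as for HOXD13 and 93 probe sets in all, was counted as 1 symbol. A gene with several probe sets takes the one with the highest mean. Gene order and overlaps came from a RefSeq gene table (assembly ARS-UCD2.0), whose coordinates are not printed. In it 9 pairs of HOX genes overlap, among them HOXA5 with HOXA3 and HOXA6, HOXA3 with HOXA4, and HOXB3 with HOXB4, HOXB5 and HOXB6, and their probe sets could share signal.

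The tests used limma 3.58.1 under R 4.3.3 (lmFit, contrasts.fit, eBayes with a constant prior). The model held the 4 groups and no other term and was fitted to all 12 arrays, with 8 residual and 3.14 prior degrees of freedom. Each of 8 comparisons had its p-values adjusted by the Benjamini-Hochberg method across every probe set. Donors were compared with limma's F test of donor terms beside group. The number of arrays limits the precision. The script was tested on simulated data.

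Same-numbered arrays come from the same animal, so the donor numbers pair the arrays. Deviations from group means correlated between 0.177 and 0.602 in 18 pairs of 1 donor, and between -0.44 and 0.10 in 36 pairs of different donors and conditions. For this reason donor was also fitted as a fixed block, which leaves 6 residual degrees of freedom.

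The background list held 71 genes, of which 62 were measured. HOX members, gene lists and comparisons were chosen with earlier results of these data known. Values per array are given for every HOX gene called in either fit and for up to 3 genes each way with the smallest p in each single comparison. From other lists, members called in either fit were named, up to 4 by p, with PITX1, TBX4 and TBX5. Members named beyond 4, and background genes named for presence alone, were chosen after their values were seen. Alternatives were a random donor term, other scalings, a filter on dim probe sets, an intensity trend, 1 probe set per symbol, only the groups compared, other background limits, and leaving out arrays and donors. Apart from the comparison of donors, the fits without single arrays or donors held no donor term. No gene sequences were used here.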

Additional observations from a re-analysis of the deposited data

How the results depend on the processing

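The HOX genes called in either fit, and those with the smallest p in each single comparison, were recomputed under the alternatives, and none of these differences changed sign. The counts of HOX genes called for hypoxia without TGF-β3, hypoxia with TGF-β3, hypoxia averaged over TGF-β3 and the interaction stayed at 0 under all of them. With donor as a block, the pairing that the shared animals give, the count was 1 for TGF-β3 at 21% oxygen (0 without the block), 2 for TGF-β3 at 2% oxygen (1 without) and 3 for both against neither (0 without). For TGF-β3 averaged over oxygen the block gave 4, against 3 without it. A random donor term gave 1, 2 and 2 for the first 3 comparisons and 6 for TGF-β3 averaged over oxygen. For TGF-β3 at 21% oxygen, quantile normalisation and a filter on dim probe sets each gave 1. For TGF-β3 at 2% oxygen, equal array medians, quantile normalisation, an intensity trend, 1 probe set per symbol and only the groups compared each gave 0. The filter on dim probe sets gave 2 for both against neither and 5 for the donors, and it leaves HOXC4 untested. Pairs of donors gave 1 (donor 2 against 1), 1 (donor 3 against 1) and 2 (donor 3 against 2).

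Without single arrays or donors, the count ranged from 0 to 0 for TGF-β3 at 21% oxygen, 0 to 1 for TGF-β3 at 2% oxygen, 0 to 2 for both against neither, 0 to 5 for TGF-β3 averaged over oxygen and 0 to 4 for the donors. The count of 2 for both against neither came without the treated array of donor 1 or donor 3 at 21% oxygen, and that of 5 without the untreated array of donor 3 at 2% oxygen. The cause of these differences was not tested, beyond the smaller number of arrays. The maximum of the background list as the limit left 2 genes above background on all arrays, and the other limits 5 to 7. HOXC4 and HOXB6 lay below the background limit on all arrays, and 3 donors are few.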

Other observations

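The probe set annotated to both HOXC11 and HOXC10 could not be assigned to either gene. Its group means were 6.08 with TGF-β3 and 6.31 without at 2% oxygen, and 6.22 and 6.30 at 21% oxygen. The difference with TGF-β3 averaged over oxygen was -0.16 ± 0.089 (adjusted p = 0.348 in limma).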
